A study of Mus musculus with 60 samples.

Results

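The transcripts of 10 metabolic sensor genes of the liver, namely Nr1h4, Nr0b2, Nr1i2, Nr1i3, Ahr, Ppara, Pparg, Nr1h3, Esrra and Rxra, were followed in mouse hepatocytes, in the progenitor-like cells that these hepatocytes form under IL6, in the hepatocytes made again from those cells, and in liver regrowing after partial hepatectomy. The genes were chosen by name, with earlier results of these data known. All 10 were among the 19355 genes of the cell table and the 17473 genes of the liver table, and 1 of them, Pparg, was among the genes of a shorter table from day 7 of culture. All 10 passed the filter on low values (1 FPKM reached in 3 samples or more) in the cell and liver tables, and Pparg passed it in the day 7 table. FPKM is the number of sequenced fragments per kilobase of transcript, scaled to the size of the library, so levels of different genes can be set side by side.

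Nuclear receptors are transcription factors that bind DNA, usually in response to a small fat-soluble ligand, and so tie the genes of bile acid, drug, lipid and sterol handling to the substances that a hepatocyte meets. Many of them bind as a pair with Rxra, the retinoid X receptor alpha. Nr0b2 (SHP) is an exception, since it has no DNA-binding domain and acts by repressing other receptors, and Ahr, the sensor of dioxin-like compounds, is a basic helix-loop-helix factor and is counted here only because it shares the task of xenobiotic sensing. In liver, Nr1h4 (FXR) senses bile acids and switches on Nr0b2, Nr1i2 (PXR) and Nr1i3 (CAR) switch on cytochrome P450 and transport genes, Ppara drives fatty acid oxidation, Nr1h3 (LXR alpha) controls sterol efflux and lipogenesis, Pparg is known for lipid storage in adipocytes, and Esrra, an orphan receptor, controls mitochondrial genes.

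The series held 60 samples in groups of 3. The labels give strain C57BL/6 and genotype WT for every sample, the mice were 8 to 10 weeks old per the study, and polyadenylated RNA was sequenced. In the cell table, Hepatocytes were cells freshly isolated by liver perfusion. IL6-iHPCs-D3 and IL6-iHPCs-D14 (passage 0) were such cells on day 3 and day 14 in hepatocyte culture medium, which holds EGF, HGF and dexamethasone, with IL6 added. The passaged IL6-iHPCs were kept in the same medium to passage 10 (P10, lines mouse-1 and mouse-2), passage 20 (P20, clone-1, a single-cell clone; the study describes clones of this name from hepatocytes that carry Albumin-Cre and a tdTomato reporter, which the label WT does not show) and passage 35 (P35, mouse-1 again). The IL6-iMHs (induced mature hepatocytes) were each of these 4 passaged cultures after 7 days in a maturation medium that lacked IL6, EGF and HGF and held oncostatin M and more dexamethasone. All cultured cells thus met dexamethasone, and the 2 mouse-1 cultures are a single line at different passages. In the liver table, Normal liver was set beside livers taken after removal of 2/3 of the liver, at 6 h (PHX-6h), at 24 h (PHX-24h) and on day 3 (PHX-D3), day 7 (PHX-D7) and day 14 (PHX-D14). In the day 7 table, IL6-iHPCs-D7 were set beside HCM-Hepa-D7, hepatocytes in the same medium without IL6, and beside primary hepatocytes.

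Each cell sample had 49290999 to 88832909 reads on genes and each liver sample 52039183 to 79220592, as recovered from the FPKM steps. All 33 cell libraries correlated best with their own group, whereas 15 of 18 liver libraries did so and the 3 PHX-D3 libraries did not. Reads of 4 Y-linked genes went against the labels of clone-1. They summed to between 6575 and 9095 per library in IL6-iHPCs-clone-1 and to 0 in every library of IL6-iMHs-clone-1. The libraries labelled clone-1 thus do not look like 1 origin. Many values that rest on them are given with and without them, and a value over the 4 cultures that is given once includes them. The same 4 genes gave 994 to 1550 reads in hepatocytes, 13066 to 18444 on day 3 and 9185 to 10803 on day 14. They gave at most 2 in the other passaged IL6-iHPCs and 0 in the other IL6-iMHs. Hepatocytes thus differed in Y-linked reads from all IL6-iMHs and from the passaged IL6-iHPCs other than clone-1. In comparisons between them, culture and the origin of the cells cannot be told apart. The hepatocyte label was borne out by markers: summed FPKM of 7 hepatocyte markers was 74580 to 80550 in hepatocytes, 949 to 1109 on day 3 and 60720 to 81190 in IL6-iMHs, and biliary and progenitor markers summed to at most 3.95 in hepatocytes, 2699 to 10980 in the passaged IL6-iHPCs and 200 to 1408 in IL6-iMHs. In whole cultures and livers, fewer cells of a type and less RNA per cell cannot be told apart.

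Promoter sequence is shown for the 3 members that the culture results turn on most: Nr0b2 and Nr1i3, which stayed low in every culture, and Nr1h4, the known activator of Nr0b2, which did not. The sequences are the 250 bases before the transcription start in RefSeq (GRCm38.p6), written 5′ to 3′ on the strand of the gene, with capitals for matches to 4 short motifs searched on both strands: AGGTCA, the nuclear receptor half-site, TTCNNNGAA, the STAT site, GCGTG, the core of the Ahr site, and GGGCGG, the GC box. Nr0b2 lies at chr4:133553126-133553375 on the plus strand, Nr1i3 at chr1:171213720-171213969 on the plus strand, and Nr1h4 at chr10:89506659-89506908 on the minus strand, where the RefSeq start lies inside the longer GENCODE gene.
Nr0b2: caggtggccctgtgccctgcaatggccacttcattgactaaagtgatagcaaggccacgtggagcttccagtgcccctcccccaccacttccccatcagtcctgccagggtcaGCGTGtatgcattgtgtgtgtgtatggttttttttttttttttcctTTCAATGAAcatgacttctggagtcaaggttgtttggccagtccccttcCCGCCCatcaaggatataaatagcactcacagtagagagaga
Nr1i3: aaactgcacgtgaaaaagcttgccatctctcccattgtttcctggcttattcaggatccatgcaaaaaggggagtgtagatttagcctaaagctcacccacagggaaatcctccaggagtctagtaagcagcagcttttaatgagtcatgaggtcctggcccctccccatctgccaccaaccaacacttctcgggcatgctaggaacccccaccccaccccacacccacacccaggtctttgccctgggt
Nr1h4: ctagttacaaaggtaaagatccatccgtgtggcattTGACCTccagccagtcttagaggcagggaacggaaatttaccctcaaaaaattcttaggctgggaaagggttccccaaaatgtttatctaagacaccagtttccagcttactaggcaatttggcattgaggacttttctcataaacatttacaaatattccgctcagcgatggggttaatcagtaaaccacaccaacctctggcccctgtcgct
The Nr0b2 sequence held a STAT-type match 91 bases before the start, a GCGTG at 137 and a GC box at 42. The Nr1h4 sequence held 1 AGGTCA, on the opposite strand at 214 bases before the start, and the Nr1i3 sequence held none of the 4. The 9 members with a RefSeq promoter (300 bases, 250 before and 50 after the start; none for Ahr) had 13 promoters between them, since a gene can have several starts. Of these 13, 4 held AGGTCA, 1 held TTCNNNGAA, 4 held GCGTG and 6 held GGGCGG. Among all 32851 promoters of this length the shares were 16.3%, 8.3%, 32.4% and 35.7%. GC content of the 300 bases was 49.7% for Nr0b2, 54.0% for Nr1i3 and 45.7% for Nr1h4, and the median over all promoters was 52.7%. These matches are letters in a window and were not tested as binding sites. The genes themselves lie (GENCODE M21, mm10) at chr10:89454234-89533585 (Nr1h4), chr4:133553376-133556536 (Nr0b2), chr16:38248323-38294824 (Nr1i2), chr1:171213970-171220701 (Nr1i3), chr12:35497974-35535038 (Ahr), chr15:85734983-85802819 (Ppara), chr6:115360951-115490399 (Pparg), chr2:91184061-91202834 (Nr1h3), chr19:6910977-6921813 (Esrra) and chr2:27676440-27762957 (Rxra).

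Culture under IL6 left the sensors in very different states. Nr0b2 and Nr1i3 all but disappeared and stayed low after maturation, Nr1h4, Ppara and Esrra ended above freshly isolated hepatocytes in FPKM, Nr1i2 differed from them by less than 2-fold in FPKM, Nr1h3 ended below them, and Ahr moved the opposite way to the rest of the set in early culture. A change is called below when the adjusted p (limma on log2(FPKM + 1), Benjamini-Hochberg over 12328 genes tested in cells and 11114 in liver) is under 0.05 and the change is at least 2-fold. Against hepatocytes, 8 of the 10 were called on day 3 (1 higher, 7 lower) where 66% of all genes were called, 7 on day 14 (1 higher, 6 lower; 62.9%), 5 in the passaged IL6-iHPCs (1 higher, 4 lower; 59.4%) and 7 in IL6-iMHs (4 higher, 3 lower; 32.6%). From day 3 to day 14, 4 were called (2 higher, 2 lower) where 10.2% of all genes were, 5.12% higher and 5.05% lower. Without clone-1, 5 were called in the passaged IL6-iHPCs (58.5%) and 7 in IL6-iMHs (29.2%). By count in FPKM the set was near the background on day 3, on day 14 and after passaging, and above it in IL6-iMHs and from day 3 to day 14. Its direction was not that of the table. Of all genes, 53.9% were called higher and 12.1% lower on day 3, 50% and 12.9% on day 14, 48.1% and 11.3% after passaging and 24.8% and 7.79% in IL6-iMHs, so that in early and passaged cultures the members stood on the smaller, lower side. The median log2 difference on day 3 was 1.14 over all genes and -1.94 over the 10. The corresponding medians over all genes and the set were 1.00 and -1.28 on day 14, 0.93 and -0.46 in the passaged IL6-iHPCs, and 0.46 and 0.49 in IL6-iMHs. These shifts of the whole table matter for small changes: after quantile normalization or median-of-ratios scaling, which both bring the median of all genes close to 0, the set had 9 members lower and 1 higher on day 3 under either, whereas in IL6-iMHs it had 3 lower and 0 higher under quantile normalization and 4 lower and 1 higher under median-of-ratios scaling. Of all 12328 genes, quantile normalization called 2916 in IL6-iMHs and median-of-ratios scaling 3745, so by count the set stood nearer the background under the former. From day 3 to day 14 the call of Nr0b2 (-1.02) was lost under both (-0.67 and -0.76). The set then had 4 higher and 1 lower (1359 of all genes called), or 2 and 1 (1039 called). Changes smaller than the table's own shift are therefore given with it. The 3 samples of a culture are technical repeats per the study, and at any fold the adjusted p called 92.3% of all genes on day 3, 93.1% on day 14, 94.1% after passaging, 87.9% in IL6-iMHs, 91.7% on maturation and 71.3% from day 3 to day 14.

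**Figure D1:**
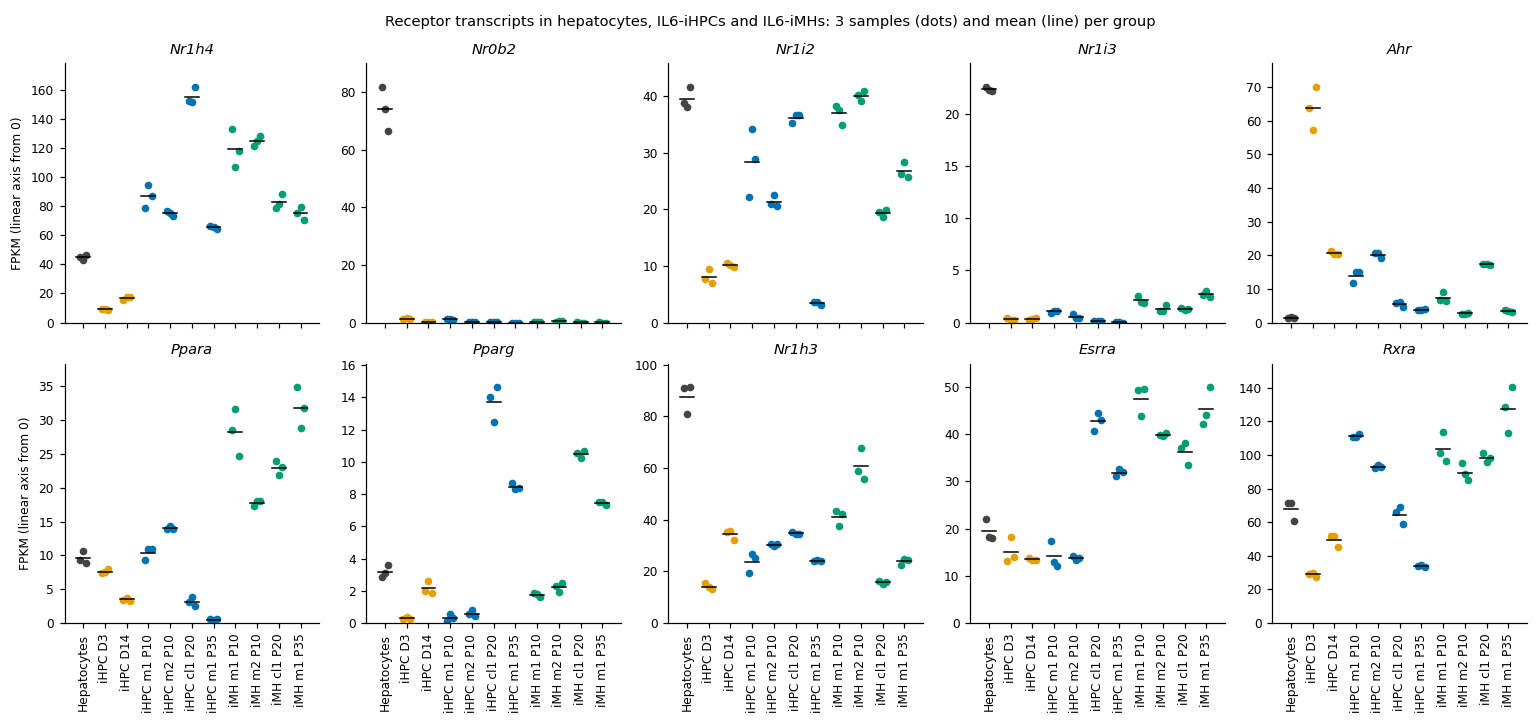
FPKM (linear axis from 0) of the 10 genes in the 11 groups of the cell table; dots are the 3 samples of a group and lines their mean, with m1, m2 and cl1 for mouse-1, mouse-2 and clone-1. Nr0b2 and Nr1i3 stand high in hepatocytes alone, Ahr peaks on day 3 at a mean of 63.7, and Nr1h4 exceeds its hepatocyte mean of 44.8 in every passaged and matured group in FPKM. Under median-of-ratios scaling the Nr1h4 difference was negative in mouse-1 P10, mouse-2 and mouse-1 P35 IL6-iHPCs and in clone-1 and mouse-1 P35 IL6-iMHs.

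**Figure D2:**
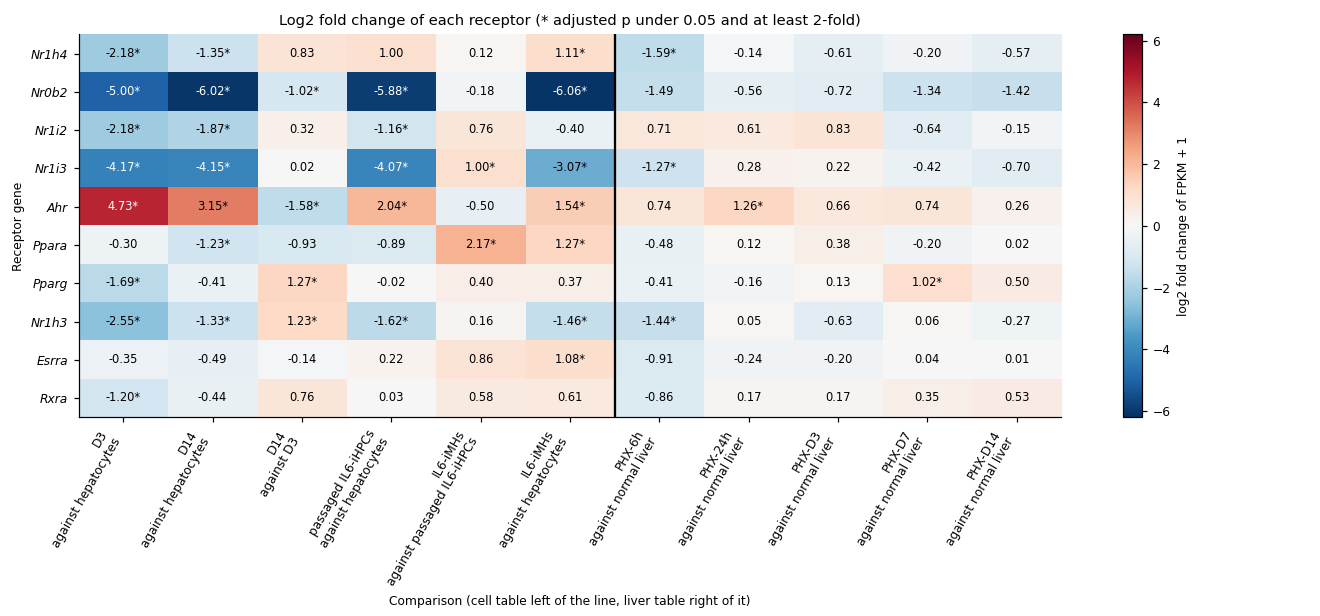
Log2 fold change of FPKM + 1 for each receptor gene (rows) in 6 cell comparisons (left of the line) and 5 liver comparisons (right), coloured from blue (lower) to red (higher), with an asterisk where the adjusted p is under 0.05 and the change at least 2-fold. Nr0b2 falls by up to 6.06 in culture while no liver value of it is called, and 5 calls in all stand in the liver columns.

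The bile acid pair came apart in culture. Nr1h4 measured 45.2, 42.7 and 46.4 FPKM in the 3 hepatocyte samples (44.8 ± 1.92; all ± on FPKM are SD over n = 3), 9.53, 9.25 and 8.51 on day 3 and 15.6, 17.8 and 17.4 on day 14. In the passaged IL6-iHPCs it measured 78.8, 94.5 and 87.2 in mouse-1 P10, 76.8, 75.3 and 73.2 in mouse-2, 152, 151 and 162 for clone-1 and 66.5, 65.7 and 64.2 in P35 mouse-1. In IL6-iMHs it measured 133, 107 and 118 in mouse-1 P10, 121, 125 and 128 in mouse-2, 78.6, 81.2 and 88.3 for clone-1 and 75.3, 79.1 and 70.3 in P35 mouse-1. Thus every passaged and matured sample stood above every hepatocyte sample in FPKM, and every sample of days 3 and 14 stood below. Under median-of-ratios scaling the log2 difference turned negative in mouse-1 P10 (-0.15), mouse-2 (-0.44) and mouse-1 P35 IL6-iHPCs (-1.04, from 0.54). It was also negative there in clone-1 (-0.11) and mouse-1 P35 (-0.09) IL6-iMHs. In the order of group means, clone-1 IL6-iHPCs came first, neighbouring ranges overlapped only within the IL6-iMH pair mouse-2 and mouse-1 P10, between mouse-1 P10 IL6-iHPCs and clone-1 IL6-iMHs, and between mouse-2 IL6-iHPCs and mouse-1 P35 IL6-iMHs, and hepatocytes, day 14 and day 3 closed the order without overlap. Nr1h4 fell on day 3 (log2 difference -2.18 ± 0.072 SE, adjusted p = 2.6e-22) and day 14 (-1.35, adjusted p = 4.3e-17). It rose in IL6-iMHs (1.11 ± 0.057, adjusted p = 3.1e-17; 1.19 without clone-1) beside an all-gene median of 0.46. The difference itself was 0.91 under quantile normalization and 0.32 under median-of-ratios scaling, both under 2-fold. In passaged IL6-iHPCs the difference was 1.00 ± 0.057, just short of 2-fold, close to the all-gene median of 0.93, 0.74 without clone-1 and -0.33 under median-of-ratios scaling.

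Nr0b2 was among the high members in hepatocytes, with 82.0, 74.1 and 66.6 FPKM, and fell to 1.3, 1.47 and 1.25 on day 3 and to 0.175, 0.102 and 0.183 on day 14. The highest passaged group, mouse-1 P10, held 1.2, 1.2 and 0.984 FPKM, and the highest matured group, mouse-2, held 0.303, 0.642 and 0.505. All hepatocyte samples stood far above all cultured samples. Counted as reads over 3 samples, day 3 held 319 reads, 1.80% of the hepatocyte level (95% exact interval 1.61 to 2.02%, counting error only), and day 14 held 32, or 0.206%. Mouse-1 P35 IL6-iHPCs held 0 reads, at least 6179-fold lower than hepatocytes with a floor of 3 reads over the group, and its matured culture held 2, or 0.0118% (0.00143 to 0.0427%). IL6-iMHs held 17 reads in mouse-1 P10 (0.0779%), 128 in mouse-2 (0.633%) and 2 in clone-1 (0.0115%, 0.00139 to 0.0414%). The fitted log2 differences, which the added 1 FPKM keeps small for such low levels, were -5.00 ± 0.069 on day 3, -6.02 on day 14, -5.88 in the passaged IL6-iHPCs and -6.06 ± 0.055 in IL6-iMHs (adjusted p = 4e-36), the last -6.01 without clone-1. Nr1h4 and Nr0b2 thus differed in direction in IL6-iMHs, where Nr1h4 was at 224% of its hepatocyte FPKM and Nr0b2 at 0.189%.

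The other genes of bile acid handling, 13 listed and 12 tested in cells, were mostly lower in every culture, also where Nr1h4 was higher. On day 3, 0 were higher and 11 lower, in the passaged IL6-iHPCs 1 higher and 10 lower, and in IL6-iMHs 1 higher and 11 lower, with medians of -3.96, -4.12 and -2.69 against 1.14, 0.93 and 0.46 over all genes. Without clone-1 the last 2 counts were 1 and 10 each. The largest falls on day 3 were in Cyp8b1, the 12-alpha-hydroxylase that sets the cholic acid share (-8.02), and Slc27a5, which activates bile acids for conjugation (-7.97). The gene called higher in IL6-iMHs was Slc51b, a subunit of the basolateral bile acid exporter and a known Nr1h4 target (1.26). Between IL6-iHPCs and IL6-iMHs, 6 were higher and 1 lower (median 1.02 against -0.40 over all genes), led by Slc27a5 (4.95) and Slc10a1, the bile acid uptake carrier (2.69), with Fgfr4, the FGF15 receptor, lower (-1.81). Cyp7a1, the first enzyme of bile acid synthesis and a textbook target of Nr0b2 repression, measured 12.7 FPKM in hepatocytes, was listed at 0 in all 4 passaged groups and came to 0.545, 1.41, 0.0321 and 0.00703 in IL6-iMHs of mouse-1 P10, mouse-2, clone-1 and P35 mouse-1.

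The xenobiotic sensors split in 3 ways: in IL6-iMHs, Nr1i2 was within 2-fold of the hepatocyte level in FPKM (lower under median-of-ratios scaling), Nr1i3 was far below it, and Ahr was above it. Nr1i2 measured 38.8, 38.1 and 41.7 FPKM in hepatocytes, 7.64, 9.37 and 6.90 on day 3 and 10.4, 10.2 and 9.73 on day 14. Passaged IL6-iHPCs ranged from 3.48 ± 0.329 in mouse-1 P35 to 36.2 ± 0.888 in clone-1, a 10.4-fold span, and IL6-iMHs from 19.4 ± 0.619 in clone-1 to 40.1 ± 0.851 in mouse-2, a 2.07-fold span. At the top of the order stood mouse-2 IL6-iMHs, hepatocytes, mouse-1 P10 IL6-iMHs and clone-1 IL6-iHPCs, and each of these 4 groups overlapped with the next. Nr1i2 fell on day 3 (-2.18 ± 0.10, adjusted p = 4.3e-19), on day 14 (-1.87) and in the passaged IL6-iHPCs (-1.16 ± 0.076, adjusted p = 8.1e-15; -1.51 without clone-1). In IL6-iMHs it differed from hepatocytes by -0.40, under 2-fold, at 77.9% of their FPKM and beside an all-gene median of 0.46. Quantile normalization gave -0.50, and median-of-ratios scaling a called -1.2.

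Nr1i3 stood at 22.6, 22.3 and 22.2 FPKM in hepatocytes and at 0.388, 0.254 and 0.254 on day 3. It measured 0.258, 0.297 and 0.386 on day 14 and, in the passaged IL6-iHPCs, from 1.06 ± 0.110 in mouse-1 P10 down to 0.0320 ± 0.0341 in mouse-1 P35, a 33.3-fold span. The matured cultures held 2.60, 2.99 and 2.49 in mouse-1 P35, 2.57, 1.96 and 1.87 in mouse-1 P10, 1.42, 1.17 and 1.31 for clone-1 and 1.09, 1.15 and 1.64 in mouse-2. No cultured sample came within reach of the hepatocyte samples, and the matured groups stood above all IL6-iHPC groups apart from an overlap between mouse-2 IL6-iMHs and mouse-1 P10 IL6-iHPCs. In reads, IL6-iMHs were at 9.70%, 5.67%, 5.79% and 12% of hepatocytes in mouse-1 P10, mouse-2, clone-1 and P35 mouse-1, and mouse-1 P35 IL6-iHPCs at 0.143% (0.0655 to 0.272%, 9 reads). The log2 difference from hepatocytes was -4.17 ± 0.086 on day 3, -4.15 on day 14, -4.07 ± 0.068 in the passaged IL6-iHPCs and -3.07 ± 0.068 in IL6-iMHs (adjusted p = 2.3e-26). The rise on maturation was 1.00 ± 0.043 (adjusted p = 2.5e-19) and sat on the 2-fold threshold, which it missed without clone-1 (0.99) and without any 1 of 9 single libraries (0.97 to 1.00).

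Ahr ran against the rest of the set on day 3 and day 14. It measured 1.34, 1.77 and 1.22 FPKM in hepatocytes, its lowest group, and 63.9, 57.2 and 70.1 on day 3, its highest. On day 14 it had fallen to 21.1, 20.3 and 20.3, overlapping with mouse-2 IL6-iHPCs (20.7, 20.6 and 19.2). Matured cultures ranged from 2.70 ± 0.184 in mouse-2 to 17.3 ± 0.125 in clone-1, all above hepatocytes without overlap. Ahr rose by a log2 difference of 4.73 ± 0.11 on day 3 (adjusted p = 2e-26), 3.15 on day 14, 2.04 ± 0.083 in the passaged IL6-iHPCs (adjusted p = 5.1e-20; 2.24 without clone-1) and 1.54 ± 0.083 in IL6-iMHs (adjusted p = 1.3e-16; 1.08 without clone-1). From day 3 to day 14 it fell by 1.58 on the log2 scale (adjusted p = 9.2e-14), while the median of all genes moved by -0.16. Quantile normalization left the passaged value at 0.81 and the IL6-iMH value at 0.79, both under 2-fold. It took the 1.42 of clone-1 IL6-iHPCs to -0.01 and the 1.00 of mouse-1 P35 IL6-iHPCs to -0.47.

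Target genes of the xenobiotic sensors were mostly lower in early culture, apart from those of Ahr. Of 19 drug metabolism genes tested, 2 were higher and 11 lower on day 3 (median -2.22), 2 and 11 in the passaged IL6-iHPCs (-1.57), and 3 and 8 in IL6-iMHs (-0.54; 3 and 6 without clone-1, median -0.02). The falls on day 3 were led by Cyp3a11, the main mouse CYP3A enzyme and a classical Nr1i2 target (-9.56), and Cyp2c29 (-9.29), and the rises by the stress gene Gadd45b (3.66) and the efflux pump Abcb1a (2.57). On maturation 11 were higher and 0 lower (13 and 0 without clone-1), led by Cyp3a11 (6.02) and Cyp2b10, the classical Nr1i3 target (5.21). Cyp3a11 measured 818 FPKM in hepatocytes and 884, 462, 12.8 and 301 in IL6-iMHs of mouse-1 P10, mouse-2, clone-1 and P35 mouse-1. Cyp2b10 measured 1.96 in hepatocytes and 80.1, 40.2, 7.43 and 119.8 in the same order, so this target stood above hepatocytes in all 4 matured cultures while Nr1i3 itself stood below. Of 7 Ahr targets tested, 1 was higher and 2 lower on day 3, 3 and 1 in the passaged IL6-iHPCs (3 and 2 without clone-1), and 1 and 1 in IL6-iMHs, and the 2 extremes went opposite ways: Tiparp, a feedback inhibitor of Ahr, rose by 3.59 on day 3, whereas Cyp1a2 fell by 7.76. Cyp1a2 measured 297 FPKM in hepatocytes and 1.13, 5.66, 0.560 and 1.98 in the 4 IL6-iMHs.

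Among the lipid and energy sensors, Ppara had the largest change on maturation of the 10 as a mean over the 4 cultures, though not in the P10 cultures, where that of Esrra was larger. It measured 9.37, 10.6 and 8.90 FPKM in hepatocytes, 7.33, 7.49 and 7.99 on day 3 and 3.48, 3.73 and 3.33 on day 14. Passaged IL6-iHPCs ran from 0.536, 0.422 and 0.531 in mouse-1 P35 through 3.17, 3.92 and 2.46 for clone-1 and 9.28, 11 and 10.9 in mouse-1 P10 to 13.9, 14.4 and 13.9 in mouse-2. IL6-iMHs held 34.9, 28.8 and 31.8 in mouse-1 P35, 28.5, 31.7 and 24.8 in mouse-1 P10, 23.9, 21.8 and 23.1 for clone-1 and 17.3, 18 and 18.1 in mouse-2. Every matured sample exceeded every other sample of the table, and a 28.4-fold span among passaged cultures narrowed to 1.79-fold among matured ones. Ppara fell on day 14 (-1.23, adjusted p = 4.6e-13), rose on maturation (2.17 ± 0.048, adjusted p = 2.7e-26; 2.04 without clone-1; all-gene median -0.40) and was higher in IL6-iMHs than in hepatocytes (1.27 ± 0.076, adjusted p = 1.4e-15; 1.3 without clone-1). That last call was lost at 0.70 under quantile normalization and 0.53 under median-of-ratios scaling.

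Of 20 Ppara targets, genes of fatty acid oxidation, 4 were higher and 12 lower on day 3 (median -1.42), 5 and 10 in the passaged IL6-iHPCs (5 and 8 without clone-1), 8 and 0 on maturation (median 0.83; 10 and 0 without clone-1) and 4 and 3 in IL6-iMHs against hepatocytes (median 0.09, which was -0.71 with 4 higher and 8 lower under median-of-ratios scaling). Pdk4, which blocks pyruvate oxidation, rose most on day 3 (6.02), and Fabp1, the fatty acid binding protein of liver, fell most (-11.93). On maturation the omega-hydroxylase Cyp4a10 rose most (4.66), at 45.6 FPKM in hepatocytes and 125, 43.0, 15.5 and 170 in the 4 IL6-iMHs.

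Pparg differed between cultures, and between the 2 passages of mouse-1. It measured 2.86, 3.12 and 3.6 FPKM in hepatocytes, 0.232, 0.405 and 0.263 on day 3 and 1.99, 2.63 and 1.86 on day 14. Clone-1 held 14.0, 12.5 and 14.6 as IL6-iHPCs and 10.6, 10.3 and 10.7 as IL6-iMHs, and mouse-1 P35 held 8.71, 8.31 and 8.35 and then 7.54, 7.5 and 7.33, all above hepatocytes in FPKM. For mouse-1 P35 IL6-iHPCs that direction rests on the scaling, since the log2 difference of 1.18 became -0.28 under quantile normalization and -0.17 under median-of-ratios scaling. Mouse-1 P10 held 0.144, 0.545 and 0.310 and then 1.85, 1.78 and 1.62, and mouse-2 held 0.532, 0.790 and 0.416 and then 2.29, 1.93 and 2.51, all below hepatocytes. The mean over the 4 cultures was therefore small, at -0.02 ± 0.078 in the passaged IL6-iHPCs (-0.63 without clone-1) and 0.37 in IL6-iMHs (0.01 without clone-1, and -0.32 and -0.30 after rescaling). Pparg fell on day 3 (-1.69 ± 0.10, adjusted p = 4.7e-16) and rose again from day 3 to day 14 (1.27, adjusted p = 2.9e-12). Adipocyte markers summed to at most 0.177 FPKM in any cell group, so transcripts that define adipocytes were near 0 beside these values. Of 10 lipid storage targets of Pparg tested, 4 were higher and 3 lower in the passaged IL6-iHPCs and 6 and 1 in IL6-iMHs (median 1.62; 1.14 to 1.17 after rescaling; 6 and 1 without clone-1). Fabp4, a fatty acid carrier known from adipocytes, was at 0.412 FPKM in hepatocytes and at 395, 153, 255 and 32 in the passaged IL6-iHPCs of mouse-1 P10, mouse-2, clone-1 and P35 mouse-1, and Cd36, a fatty acid uptake receptor, at 0.507 and 189, 181, 160.0 and 5.49. The levels of these 2 targets among cultures were thus not in the order of Pparg.

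Nr1h3 was lower in culture than in hepatocytes throughout. It measured 90.7, 80.8 and 91.2 FPKM in hepatocytes, 15.3, 13.9 and 13.1 on day 3 and 35.1, 35.5 and 32.2 on day 14. Passaged group means lay between 23.8 and 34.7, the narrowest span of the set in these cultures at 1.46-fold, and matured means between 15.8 for clone-1 and 60.7 in mouse-2. Hepatocytes overlapped with no other group. The log2 difference was -2.55 ± 0.085 on day 3 (adjusted p = 3.8e-22), -1.33 on day 14, -1.62 ± 0.067 in the passaged IL6-iHPCs and -1.46 ± 0.067 in IL6-iMHs (adjusted p = 2.8e-18; -1.14 without clone-1). From day 3 to day 14 it rose by 1.23 (adjusted p = 2.5e-13). Its sterol and lipogenic targets did not follow as a list: 5 of 10 were higher and 3 lower in the passaged IL6-iHPCs (median 1.17, which was -0.16 under median-of-ratios scaling) and 2 and 4 in IL6-iMHs (2 and 3 without clone-1). Abca1, the cholesterol efflux pump, rose by 3.08 on day 3 while Scd1, the stearoyl-CoA desaturase, fell by 4.31. Abcg5 and Abcg8, which together pump sterols into bile, both fell in the passaged IL6-iHPCs, by 3.85 and 3.74.

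Esrra measured 22.0, 18.1 and 18 FPKM in hepatocytes and overlapped with day 3 (13.1, 18.3 and 13.9), and the day 3, mouse-1 P10, mouse-2 and day 14 IL6-iHPCs overlapped from each to the next. It was high in FPKM in 2 passaged groups, clone-1 (40.6, 44.5 and 42.9) and mouse-1 P35 (31.8 ± 0.717). The log2 difference of clone-1 was 1.1, and -0.34 under median-of-ratios scaling. That of mouse-1 P35 was 0.69, -0.16 under quantile normalization and -0.85 under median-of-ratios scaling. Esrra was also high in all 4 IL6-iMH groups (means of 36.2 to 47.5, a 1.31-fold span). Esrra rose in IL6-iMHs against hepatocytes (1.08 ± 0.081, adjusted p = 3.6e-13; 1.15 without clone-1), which rescaling brought to 0.67 and 0.30, under 2-fold. The passaged difference was 0.22 ± 0.081, -0.07 without clone-1 and a called -1.07 under median-of-ratios scaling, so its direction depends on the scaling. Of 13 mitochondrial targets, 4 were higher and 4 lower on day 3, 2 and 4 in the passaged IL6-iHPCs (1 and 6 without clone-1) and 0 and 1 in IL6-iMHs (1 and 0 without clone-1). Sdhb, an iron-sulphur subunit of respiratory complex II, fell by 2.81 on day 3 and by 3.07 in the passaged IL6-iHPCs.

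Rxra, the shared partner, was the highest member after Nr1h4 in the passaged IL6-iHPCs of clone-1 and P35 mouse-1. It measured 71.4, 71.5 and 60.5 FPKM in hepatocytes, 29.1, 29.9 and 27.7 on day 3 and 51.7, 52.0 and 45.2 on day 14. Passaged groups lay at 111 ± 1.18 in mouse-1 P10, 93.1 ± 0.744 in mouse-2, 64.5 ± 5.17 for clone-1 and 33.8 ± 0.726 in P35 mouse-1, and matured groups between 89.5 ± 5.16 and 127 ± 13.8. Clone-1 IL6-iHPCs overlapped with hepatocytes, and every IL6-iMH sample stood above every hepatocyte sample. Rxra fell on day 3 (-1.2 ± 0.076, adjusted p = 3.4e-15). It differed by 0.03 in the passaged IL6-iHPCs, which was a called -1.3 under median-of-ratios scaling, and by 0.61 ± 0.060 in IL6-iMHs, which was -0.19 under that scaling. Of 15 further partners and coregulators tested, 12 were higher and 0 lower on day 3, among them the corepressor Nrip1 (4.02), 9 and 1 in the passaged IL6-iHPCs, led by the acetyltransferase Ep300 (3.33), and 0 and 8 on maturation, led by Ncoa2 (-1.87) and Crebbp (-1.74). Under the other scalings the counts were 8 and 2 or 9 and 3 on day 3, and 0 and 7 on maturation.

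Of the other nuclear receptors, 38 were listed and 28 tested. On day 3, 16 were higher and 1 lower (median 1.21, close to the all-gene 1.14, and 7 and 4 or 6 and 6 after rescaling), beside 1 higher and 7 lower among the 10 (1 and 9 after rescaling), and the difference between the sets was not tested. Rora (3.37) and Rarg (3.11), a retinoid orphan receptor and a retinoic acid receptor, rose most. Hnf4a, the receptor that defines hepatocyte identity, lay between group means of 140 and 276 FPKM in all 11 groups.

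**Figure D3:**
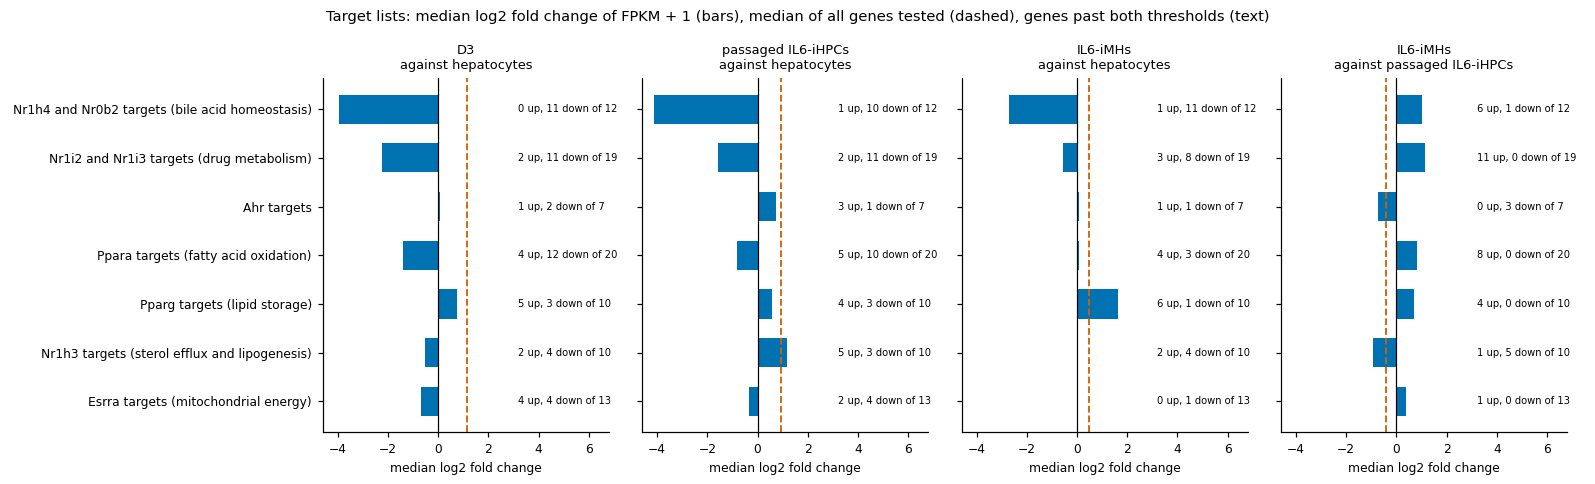
Median log2 fold change of FPKM + 1 (bars) of 7 lists of known target genes in 4 comparisons of the cell table, with the median of all genes tested as a dashed line and the number of genes past both thresholds as text. Bile acid and drug metabolism lists lie below the dashed line against hepatocytes, at -3.96 and -2.22 on day 3, and above it on maturation, at 1.02 and 1.12.

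Maturation was then taken culture by culture, since the mean over the 4 cultures hides opposite changes. As a mean over cultures, 2 of the 10 members were called (2 higher, Ppara and Nr1i3) where 28.1% of all genes were called, 6.68% higher and 21.4% lower. Without clone-1, 4 were called (Ppara 2.04, Nr1i2 1.3, Esrra 1.22 and Ahr -1.16) where 33.2% of genes were. That count depended on the scaling: 5 were higher and 0 lower under quantile normalization, and 8 and 0 under median-of-ratios scaling. The fall of Ahr was called under neither (-0.68 and -0.72). With clone-1 the counts were 3 and 0 (2281 of 12328 genes called) and 5 and 0 (2615 genes called). Within cultures, 4 members were called in mouse-1 P10 (background 25%), 3 in mouse-2 (39.9%), 4 at P35 of mouse-1 (45.3%) and 4 in clone-1 (23.6%). The libraries labelled clone-1 differ in Y-linked reads between IL6-iHPCs and IL6-iMHs, so in the clone-1 values below maturation and origin cannot be told apart. Ppara was higher after maturation in all 4 and called in 3, by 1.36 in mouse-1 P10, 2.53 for clone-1 and 4.45 ± 0.10 in P35 mouse-1 (adjusted p = 2.5e-26). In mouse-2, whose IL6-iHPCs had the highest starting level, it was higher by 0.32, under 2-fold. Ahr fell in mouse-2 (-2.52 ± 0.11, adjusted p = 4.7e-19) and was higher in the IL6-iMHs than in the IL6-iHPCs labelled clone-1 (1.49, adjusted p = 1.5e-13). Esrra rose in mouse-1 P10 (1.69) and mouse-2 (1.47) and differed by -0.23 for clone-1 and 0.50 in P35 mouse-1. Pparg likewise rose in the first pair (1.05 and 1.04) and differed by -0.35 and -0.16 in the second. Nr1h3 was lower in the IL6-iMHs labelled clone-1 (-1.09), and its difference was 0.77, 0.98 and -0.02 elsewhere.

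**Figure D4:**
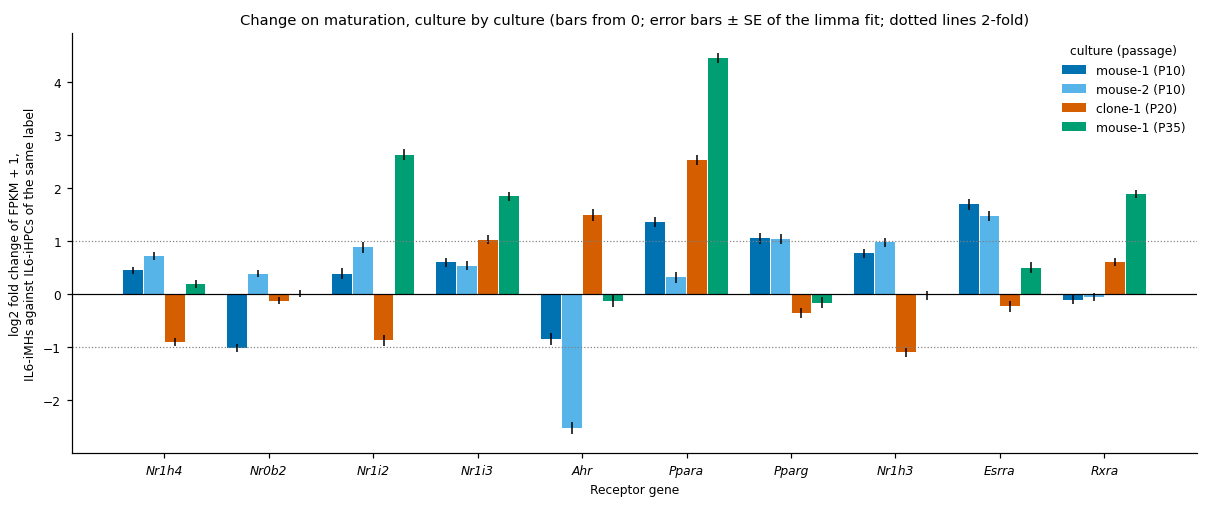
Log2 fold change of FPKM + 1 from IL6-iHPCs to IL6-iMHs of the same label (bars from 0, error bars ± SE of the fit, dotted lines at 2-fold) for each receptor gene in 4 cultures; the libraries labelled clone-1 differ in Y-linked reads between the stages. Ppara rises most in mouse-1 at P35 (4.45), and Ahr is lower after maturation in mouse-2 (-2.52) and higher in clone-1 (1.49).

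Passage 35 and passage 10 of mouse-1 differed as IL6-iHPCs far more than as IL6-iMHs. Of the 10 members, 7 were called between P35 and P10 before maturation (2 higher, 5 lower) where 33.7% of all genes were, 24.8% higher and 8.94% lower, and 1 after it (1 higher, 0 lower) where 6.21% were, 3.57% higher and 2.64% lower. Before maturation, P35 was lower in Ppara (-2.93, adjusted p = 1.1e-21), Nr1i2 (-2.70), Rxra (-1.69), Ahr (-1.61) and Nr0b2 (-1.09) and higher in Pparg (2.84, adjusted p = 5.5e-21) and Esrra (1.13). The all-gene median was 0.36, and the Esrra call was lost under both rescalings (0.73 and 0.65), under which the other calls held. After maturation Pparg alone was called (1.62 ± 0.10, adjusted p = 2.6e-14), and Ppara, Nr1i2 and Rxra differed by 0.17, -0.45 and 0.29. The test of the difference in maturation between P35 and P10 called Ppara (3.09 ± 0.14, adjusted p = 3.3e-18), Nr1i2 (2.25), Rxra (1.98) and Nr1i3 (1.24) among others.

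As a description of likeness, each member's 11 group means of log2(FPKM + 1) were correlated with those of all genes tested. These points share libraries and cultures, and hepatocytes stand apart in many genes. The closest gene to Nr1i3 was Csad, a taurine synthesis enzyme (r = 0.993), and the closest to Nr0b2 was Hcls1, a haematopoietic cell gene (r = 0.990). For Nr0b2 the 8 Kupffer cell markers summed to 14.6 to 16.8 FPKM and red blood cell markers to 107 to 124 in hepatocytes, against at most 1.03 for the latter in any culture. The Kupffer sum was 17.9 to 21.3 in mouse-1 P35 IL6-iMHs, where Nr0b2 held 2 reads and Clec4f, Vsig4, Cd5l and Timd4 were at 0, and at most 4.31 in the other cultures, and the part of other cells in the likeness was not tested. Ppara was closest to Gpt2 (0.959), an alanine aminotransferase, Esrra to Samm50 (0.971), a mitochondrial outer membrane assembly factor, and Rxra to Man1a (0.961). The closest genes were Gm20684 (0.941) for Nr1h4, Acbd4 (0.919) for Nr1i2, Shroom3 (0.954) for Ahr, Blvra (0.943) for Pparg and Anapc13 (0.935) for Nr1h3. Between Nr1h4 and Nr0b2 themselves r was -0.22.

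In regenerating liver few members were called, most of them at 6 h. Against normal liver, 3 of 10 members were called at 6 h (0 higher, 3 lower; background 16.3%, with 4.78% higher and 11.5% lower), 1 at 24 h (1 higher; 7.9%, with 3.74% higher and 4.16% lower), 0 on day 3 (5.82%, 3.33% and 2.49%), 1 on day 7 (1 higher; 8.84%, 7.81% and 1.03%) and 0 on day 14 (2.98%, 0.981% and 2%). At any fold the adjusted p called 52.5%, 33.2%, 28.9%, 29.4% and 16.9% of all genes at these times. For the 2 counts of 0 in limma, 3 members each had an unadjusted p under 0.05 and voom on recovered reads also called 0. The lowered genes at 6 h were Nr1h4, Nr1h3 and Nr1i3. Quantile normalization called 0 higher and 2 lower at 6 h, and median-of-ratios scaling 2 higher (Nr1i2 and Ahr) and 2 lower (Nr1h4 and Nr1h3). The labels do not state whether the 3 samples of a time point came from separate animals, so p-values measure the spread between these samples.

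**Figure D5:**
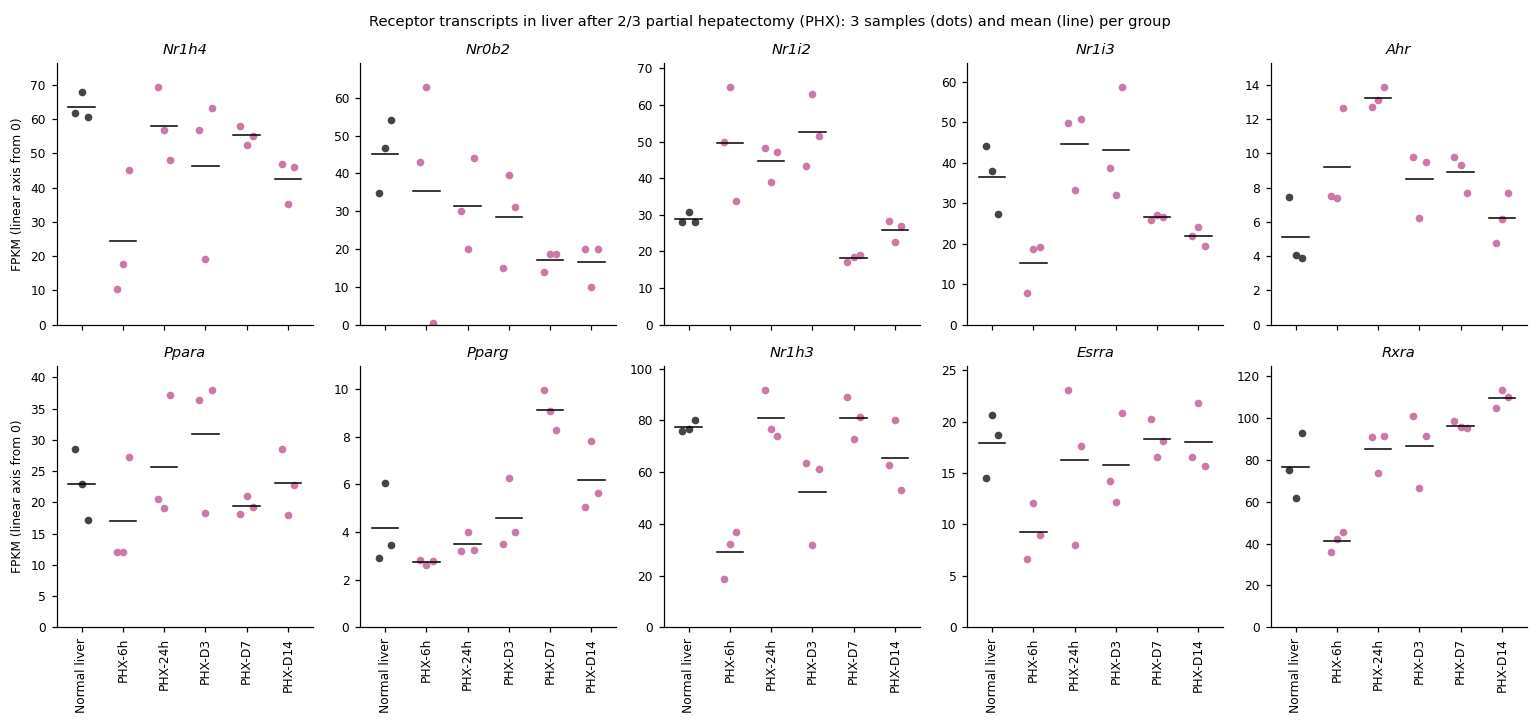
FPKM (linear axis from 0) of the 10 genes in normal liver (black) and at 5 times after 2/3 partial hepatectomy (PHX, pink); dots are the 3 samples of a group and lines their mean. Nr1h3 and Rxra are lowest at 6 h (means of 29.1 and 41.3), Ahr is highest at 24 h (13.2), Pparg is highest on day 7 (9.12), and 1 sample at 6 h lies far below the others in Nr0b2.

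Nr1h4 measured 61.9, 67.9 and 60.8 FPKM in normal liver and 10.4, 17.8 and 45.2 at 6 h, a fall of 1.59 ± 0.43 on the log2 scale (adjusted p = 0.006). The 3 samples at 6 h lay below all normal samples but far from each other, and the difference was -2.14 ± 0.37 without replicate 3. From 24 h on, group means were between 42.7 and 58.1 and all neighbours in the order overlapped. Day 7 (52.6 to 58.0) and day 14 (35.2 to 46.9) still stood below all normal samples, with log2 differences of -0.20 and -0.57, under 2-fold. Nr0b2 was variable: 34.9, 46.6 and 54.1 in normal liver, 43.0, 62.9 and 0.508 at 6 h, and 14.0, 18.7 and 18.8 on day 7. On day 14 it ranged from 9.98 to 20.1. Day 7 and day 14 both stood below all normal samples, with log2 differences of -1.34 and -1.42 that were not called. The low sample at 6 h is replicate 3, the one with the highest Nr1h4, and the log2 difference of Nr0b2 turned from -1.49 ± 0.94 (adjusted p = 0.19) to 0.22 ± 0.40 without it and became a call at -2.48 ± 0.91 without replicate 2. Cyp7a1 fell at 6 h (-4.19 ± 1.3, adjusted p = 0.011) and Slc51b rose (2.14), and 1 of the bile acid genes was higher and 3 were lower.

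Nr1i3 measured 44.1, 37.9 and 27.4 FPKM in normal liver and 7.84, 18.8 and 19.2 at 6 h, without overlap (-1.27 ± 0.29, adjusted p = 0.002). Without PHX-6h replicate 1 it was -0.88 and no longer called, and under quantile normalization -1.0 and median-of-ratios scaling -0.92. On day 7 and day 14 Nr1i3 also stood below all normal samples, with log2 differences of -0.42 and -0.70, under 2-fold. At 6 h Nr1i2 went the other way in level, with 28.1, 30.8 and 27.9 in normal liver and 50, 65.0 and 33.8 at 6 h. It had a mean of 52.6 ± 9.82 on day 3 and measured 17.2, 18.5 and 19.1 on day 7. None of these differences reached 2-fold (0.71 at 6 h, 0.83 on day 3 and -0.64 on day 7), although the 6 h value was 1.08 and called under median-of-ratios scaling and the day 3 value 1.03 and called under quantile normalization. Ahr rose at 24 h, from 7.44, 4.06 and 3.89 to 12.7, 13.1 and 13.9 (1.26 ± 0.23, adjusted p = 0.0011). At 6 h its difference was 0.74, and a called 1.08 under median-of-ratios scaling. Of the drug metabolism genes, 5 were higher and 2 lower at 6 h, led by Cyp2b10 (3.22 ± 0.69, adjusted p = 0.0013) and Gadd45b (2.66), and Tiparp rose by 3.53.

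Nr1h3 fell at 6 h, from 75.8, 76.8 and 80.2 FPKM to 18.5, 32 and 36.8 (-1.44 ± 0.26, adjusted p = 0.0003; -1.63 without replicate 3), stayed below all normal samples on day 3 (63.5, 31.8 and 61.2, log2 difference -0.63, adjusted p = 0.077) and overlapped with them at 24 h, day 7 and day 14. Rxra measured 36.2, 42.0 and 45.7 at 6 h against 75.3, 61.6 and 92.7, without overlap but under 2-fold (-0.86 ± 0.16), and 105, 114 and 110 on day 14 (0.53 ± 0.16). Ppara overlapped between normal liver (28.6, 22.9 and 17.2) and every time after hepatectomy, and 7 of its targets were higher and 0 lower at 6 h, led by Pdk4 (6.52) and Plin2 (2.81), a lipid droplet protein. Esrra was at 9.24 ± 2.76 at 6 h against 17.9 ± 3.14 (-0.91 ± 0.30). Pparg rose on day 7, from 2.92, 6.07 and 3.47 to 9.99, 9.07 and 8.30 (1.02 ± 0.21, adjusted p = 0.0019). That call was lost without Normal liver replicate 1 (0.84) or replicate 3 (0.94), without PHX-D7 replicate 1 (0.96), and under both rescalings (0.79 and 0.86). Kupffer cell markers summed to 166 to 267 FPKM in normal liver and 970 to 1414 on day 7, beside the Pparg value, and their part in it was not tested.

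In the day 7 cultures, which tested IL6 against the same medium without it, Pparg was at 3.55, 2.60 and 2.93 FPKM with IL6 and at 3.80, 2.99 and 2.98 without it, with overlap (log2 difference -0.08 ± 0.11, adjusted p = 0.58; 5.43% of the 276 genes tested were called). Both stood above primary hepatocytes at 0.946, 1.3 and 0.800. The difference was called without IL6 (1.08 ± 0.11, adjusted p = 1.5e-06; background 54%) and was 1.00 ± 0.11 with IL6 (background 53.3%), just short of 2-fold. The FPKM of this table were not combined with those of the other 2.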

How the data were processed

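RNA-seq was analysed from 3 tables of gene values that the authors deposited, with 33 cell samples, 18 liver samples and 9 day 7 samples, 3 per group. The deposited values carry no unit and were read as FPKM: values of each gene were whole multiples of 1 step per sample, and in 100% of genes tested for this (18826 in cells, 17327 in liver) whole reads came back within 0.02 reads, where a read is the smallest unit counted. These include 719 genes in cells and 618 in liver that were above 0 in 1 sample only, for which whole reads were certain in advance. Whole multiples would also hold for other values scaled to library size, so the unit remains inferred. The submitters' processing notes name TopHat 1.4.1, Cufflinks 1.3.0 and mm10, with no roles given. Duplicate rows of 2 symbols in the cell data and 2 in the liver data were averaged. The day 7 table was held as 480 whole rows, and 1 further row, which was cut off, was left out. Tables were not combined.

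Differences were fitted with limma 3.58.1 (trend) in R 4.3.3 on log2(FPKM + 1), with all groups of a table in 1 fit, for genes that reached 1 FPKM in 3 samples or more, with the Benjamini-Hochberg adjustment taken over every gene tested. The fold change on this scale understates the change of low genes. Means over passaged cultures weight the 4 cultures equally. Fits were tested on simulated data. The study describes the 3 samples of a cell group as technical repeats, so p-values cover that spread only, and intervals on reads cover counting error only. Genes were named from each list by at most the 2 largest rises and 2 largest falls past both thresholds per comparison, and by the 3 closest genes per member; target levels in FPKM are shown for a few such genes. The members and lists were chosen with earlier results of these data known. The alternatives tried were quantile normalization, median-of-ratios scaling, a pseudocount of 0.1, omission of the filter, a stricter filter (5 FPKM), a replicate block, no fold threshold, voom on recovered reads, each replicate left out and, chosen after seeing the data, all clone-1 samples left out. Sequences came from RefSeq promoters (GRCm38.p6), and gene positions from GENCODE M21. No columns of the authors' own comparisons were used. Python 3.11.15 with numpy 2.4.6, pandas 2.3.3, scipy 1.17.1 and matplotlib 3.10.9 served for the rest. A few genes that the rule names are not reported here.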

Additional observations from a re-analysis of the deposited data

Results flagged for a closer look

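The change of several members on maturation differed between cultures (3 lines, mouse-1 at 2 passages), by the test of the difference itself (limma, log2 scale, IL6-iMHs minus IL6-iHPCs of one culture minus the same in mouse-1 P10). Differences are given with the culture named first minus mouse-1 P10. For mouse-1 P35 the difference was 3.09 for Ppara, 2.25 for Nr1i2, 1.98 for Rxra, 1.24 for Nr1i3 and 1.02 for Nr0b2, and -1.20 for Esrra and -1.22 for Pparg (SE 0.10 to 0.15; 33.7% of all genes were called in this contrast). For clone-1 it was 2.33 for Ahr and 1.17 for Ppara, and -1.93 for Esrra, -1.86 for Nr1h3, -1.41 for Pparg, -1.35 for Nr1h4 and -1.25 for Nr1i2 (30.8% of all genes). For mouse-2 it was 1.4 for Nr0b2, -1.68 for Ahr and -1.04 for Ppara (14.7% of all genes). These contrasts share the mouse-1 P10 samples, and the clone-1 values set side by side libraries whose Y-linked reads differ. The Nr0b2 values rest on few reads. Summed over 3 samples, these went from 221 to 17 in mouse-1 P10, 0 to 2 in mouse-1 P35 and 33 to 128 in mouse-2. Nr0b2 therefore could not fall in mouse-1 P35, and its 1.02 there is set by the change of -1.01 in mouse-1 P10. Rescaling took 6 of these values under 2-fold under at least 1 scaling, namely Esrra (-0.85 and -0.74), Nr0b2 (0.95 and 0.98) and Pparg (-0.73 and -0.70) for P35, Nr1h4 (-0.67) and Nr1i2 (-0.84) for clone-1, both under quantile normalization, and Ppara (-0.92 and -0.77) for mouse-2.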

How the results depend on the processing

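With no fold threshold the members called were 8 from day 3 to day 14, 8 in passaged IL6-iHPCs, 10 on maturation, 7 at PHX-6h, 2 at 24 h, 2 on day 3, 3 on day 7 and 1 on day 14. The shares of all genes called, in the same order, were 71.3%, 94.1%, 91.7%, 52.5%, 33.2%, 28.9%, 29.4% and 16.9%. Median-of-ratios scaling called 9 in passaged IL6-iHPCs, 5 on maturation and 0 on PHX-D7, and quantile normalization 3 in IL6-iMHs against hepatocytes, 1 on PHX-D3 and 0 on PHX-D7. Without clone-1, 4 were called on maturation, and 5 under quantile normalization and 8 under median-of-ratios scaling. For Pparg on day 7 of culture with IL6 against primary hepatocytes a pseudocount of 0.1 gave 1.5. Directions reversed under median-of-ratios scaling in passaged IL6-iHPCs for Esrra (-1.07) and Rxra (-1.30), and in single cultures for Esrra in clone-1 (-0.34) and Nr1h4 and Pparg in mouse-1 P35 (-1.04 and -0.17), and under quantile normalization for Ahr in clone-1 (-0.01) and Pparg in mouse-1 P35 (-0.28). Some values that no scaling called also changed direction. Among them were Esrra (0.69, then -0.16 and -0.85) and Ahr (1.00, then -0.47 and -0.13) in mouse-1 P35 IL6-iHPCs, with quantile normalization first. Nr1h4 also turned negative under median-of-ratios scaling in mouse-2 IL6-iHPCs (-0.44) and in clone-1 and mouse-1 P35 IL6-iMHs (-0.11 and -0.09). In mouse-1 P10 IL6-iHPCs it was -0.15 under that scaling and a called 1.14 under quantile normalization. The cause of these reversals was not tested. The higher and lower calls over all genes moved with the scaling, from 6641 and 1494 on day 3 to 3179 and 2749 (quantile) or 3183 and 3513 (median-of-ratios), and in IL6-iMHs against hepatocytes from 3060 and 960 to 1576 and 1340 or 1669 and 2076. In passaged IL6-iHPCs the split moved from 5931 and 1392 to 2797 and 2335 or 2874 and 3160, on maturation from 823 and 2636 to 1185 and 1096 or 1560 and 1055, and at PHX-6h from 531 and 1279 to 758 and 674 or 852 and 699.

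Leaving out 1 replicate at a time gave 8 to 8 members called on day 3, 7 to 7 on day 14, 3 to 4 from day 3 to day 14, 5 to 6 in passaged IL6-iHPCs, 1 to 2 on maturation, 7 to 7 in IL6-iMHs, 2 to 5 at PHX-6h, 1 to 1 at 24 h, 0 to 0 on PHX-D3, 0 to 1 on PHX-D7 and 0 to 0 on PHX-D14. For Pparg on day 7 of culture the ranges were 0.99 to 1.18 without IL6, 0.91 to 1.1 with IL6 and -0.17 to 0.01 between them. Replicate numbers did not pair samples: deviations of same-numbered samples correlated at a mean of -0.015 in cells and -0.03 in liver, and the replicate block changed 0 of 60 and 0 of 50 member calls, with 8 still called on day 3. Voom on recovered reads called 8, 7, 5, 7, 3 and 7 members in the 6 cell comparisons and 3, 1, 0, 1 and 0 in liver. The cell order is day 3, day 14, day 3 to day 14, passaged IL6-iHPCs, maturation and IL6-iMHs. Of all genes, voom called 9321, 9104, 2363, 8860, 5437 and 6479 of 12326 in these cell comparisons. In liver it called 3025, 1389, 1084, 1559 and 756 of 11112. Nr0b2 and Nr1i3 in culture rest on few reads and cannot be ranked among the lowest groups.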

Other observations

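In regenerating liver, lists of target genes held calls at times when the receptor itself was not called. Of 8 lipid storage targets of Pparg tested, 4 were higher and 1 lower at 6 h and 5 and 2 at 24 h (medians 1.06 and 1.43), led by Cidec, a lipid droplet protein, at 5.01 and 3.50, while Pparg itself differed by -0.41 and -0.16. Of 12 Nr1h3 targets, 1 was higher and 4 lower at 24 h, with Abca1 up by 1.48, Srebf1, the master factor of lipogenesis, at -3.01 and Fasn, fatty acid synthase, at -2.34, while Nr1h3 differed by 0.05. Ppara targets were 6 higher and 1 lower at 24 h, led by the omega-hydroxylases Cyp4a14 (4.05) and Cyp4a10 (1.96), while Ppara differed by 0.12. Of the bile acid genes, 0 were higher and 4 lower at 24 h (Cyp8b1 -3.85) and 0 and 4 on day 3 (Cyp8b1 -3.13). On day 7, Tiparp (2.11) and Nqo1 (2.35) were the largest rises among Ahr targets, and Cyp2b9 (3.96) among drug metabolism genes. Hepatocyte markers summed to 53150 to 57890 FPKM in normal liver and 30400 to 35130 at 24 h.

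Among 24 other nuclear receptors tested in liver, 1 was higher and 6 were lower at 6 h. Nr4a1, an immediate-early orphan receptor, rose by 1.25 at 6 h, 5.21 on day 7 and 5.23 on day 14, and the circadian receptor Nr1d1 fell by 3.44 at 6 h and 2.00 at 24 h. The labels used here give no hour of day for the livers.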
